A study of Mus musculus with 6 samples.

Results

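The circadian clock genes described here are Nr1d1, Nr1d2, Per1, Per2, Per3, Cry1, Cry2, Dbp, Tef and Arntl, 10 of the 53153 gene symbols in a bulk RNA-seq count table from mouse gastrointestinal stromal tumor (GIST). They were taken by symbol, and each had exactly 1 row. Nr1d1 was selected on its higher counts in the imatinib libraries, so its values are a description with no test. The other 9 were added for their place in the clock. Libraries came from tumors of Kit V558del/+ mice of the C57BL/6J strain, 8 to 10 weeks old, and fell into an imatinib group (3 libraries, 1 week of imatinib at 600 mg/L in the drinking water) and a vehicle group (3 libraries). Every mouse in both groups carried the Kit allele, an activating deletion in the gene of the receptor tyrosine kinase KIT, and imatinib is an inhibitor of that kinase. According to the study's methods the cells were sorted as CD45+ CD3+ NK1.1- TCRγδ+ T cells, whereas the series description speaks of regulatory T cells of the tumor and its lymph node. All 6 libraries carry the same batch label, and nothing in the labels says that replicates came from separate mice, so p-values measure the spread between these libraries, which may be technical.

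The clock is a loop of transcription factors that drives a daily cycle of gene expression in nearly every cell. BMAL1, the product of Arntl, pairs with CLOCK and activates genes through E-boxes in their promoters. Among these targets are the PER and CRY proteins, which bind back to the pair and inhibit it, and the REV-ERB nuclear receptors (Nr1d1 and Nr1d2), which repress Arntl and other genes at ROR elements. ROR receptors activate through the same elements. Dbp, Tef and Hlf encode output factors of the PAR bZIP class, which bind D-boxes. Because these transcripts cycle, their level in a tissue depends on the hour of collection, which is not given in the sources used here.

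Promoter sequence is shown first because members that share a site in the loop can be set beside one another in the expression data. RefSeq windows (assembly GRCm38.p6) from 250 bases before to 50 after a transcription start were on hand for 9 of the 10 genes, 12 windows in all, and Per2 had none. They were searched on both strands for the E-box CACGTG, a variant E-box CACGTT, the D-box TTATGTAA (also TTACGTAA) and the ROR element core TAGGTCA (also TGGGTCA). No match overlapped another. Of 32851 mouse promoter windows of the same length, 7.15% held the E-box, 4.68% the variant E-box, 1.06% the D-box and 6.45% the ROR core. A match was found in 7 of the 9 genes: the E-box in Per1, Cry1 and Tef, the variant E-box in Nr1d1, Cry1 and Cry2, the D-box in Per3 and the ROR core in Arntl. Nr1d2 and Dbp had no match in these windows. The shares over all windows are per motif and per window, so none is a like measure for 7 of 9 genes. Of 21 further clock genes, described below, 15 had a window. A match was found in 6 of these 15, and 3 held the E-box. The stretches below are written 5′ to 3′ on the strand of the gene, with each match in capitals. For Tef and Arntl the match lies in an annotated 5′ UTR exon and 30 bases are given. Ciart, an E-box-driven repressor outside the 10 genes, was added after its values were seen, because its window held 3 E-boxes.
Nr1d1 (chr11:98775378-98775477, minus strand): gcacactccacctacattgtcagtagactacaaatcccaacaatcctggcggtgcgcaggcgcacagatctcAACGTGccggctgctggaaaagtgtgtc
Per1 (chr11:69098737-69098836, plus strand): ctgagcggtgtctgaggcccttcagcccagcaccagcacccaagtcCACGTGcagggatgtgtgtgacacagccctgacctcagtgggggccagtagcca
Cry1 (chr10:85185070-85185169, minus strand): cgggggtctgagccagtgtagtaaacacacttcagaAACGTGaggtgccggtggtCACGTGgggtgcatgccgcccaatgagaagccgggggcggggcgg
Tef (chr15:81802534-81802563, plus strand): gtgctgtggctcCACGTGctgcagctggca
Per3 (chr4:151044793-151044892, minus strand): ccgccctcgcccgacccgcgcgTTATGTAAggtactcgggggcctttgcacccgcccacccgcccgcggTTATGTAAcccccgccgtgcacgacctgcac
Arntl (chr7:113207529-113207558, plus strand): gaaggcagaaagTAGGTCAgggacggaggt
Ciart (chr3:95882255-95882354, minus strand): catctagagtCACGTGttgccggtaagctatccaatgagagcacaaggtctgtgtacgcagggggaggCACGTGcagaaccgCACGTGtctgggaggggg

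**Figure D1:**
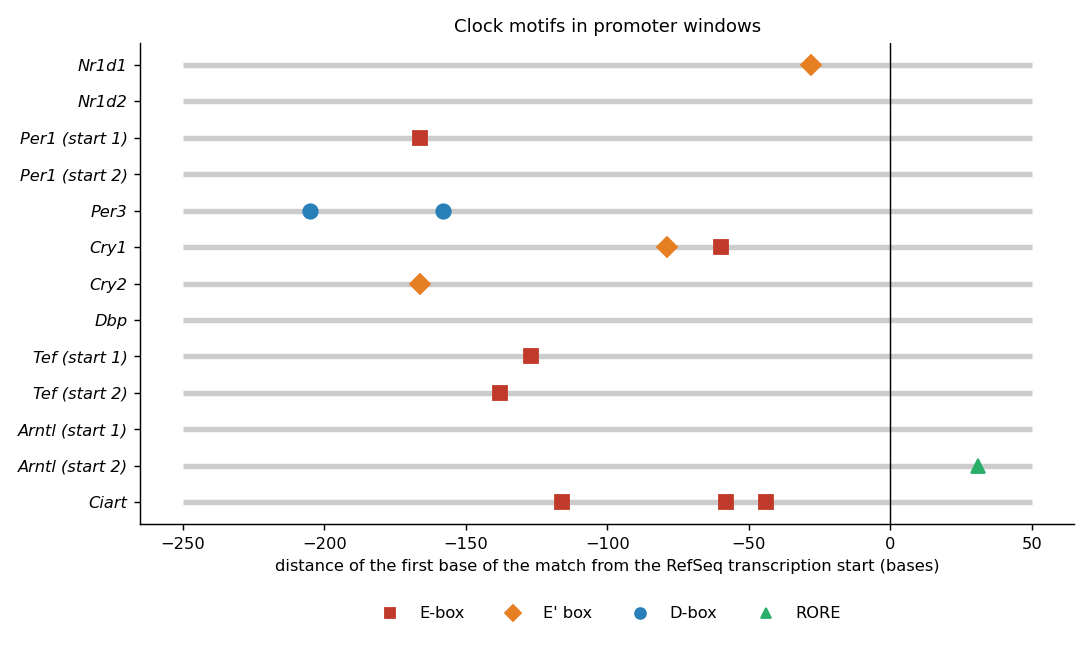
Matches to the 4 clock motifs in the RefSeq promoter windows, drawn as grey bars, of 9 clock genes and Ciart, by distance in bases of the first base of the match from the transcription start. Windows of Nr1d2 and Dbp, of start 2 of Per1 and of start 1 of Arntl are empty. Cry1 holds an E-box at -60 and a variant E-box at -79, and Ciart holds 3 E-boxes.

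Summed over all 53153 gene symbols, the imatinib libraries had 21333897 to 23013208 counts and the vehicle libraries 21493848 to 25214210. Values below are CPM, counts scaled to a common library size with TMM factors, and genes were tested with edgeR (quasi-likelihood, Benjamini-Hochberg adjustment over 16621 genes). The sorted cells were checked by markers. Trdc, the constant segment of the T cell receptor δ chain, was at 1237, 850 and 1038 CPM on imatinib and at 505, 673 and 373 CPM on vehicle. Foxp3, which defines regulatory T cells, was at most 0.223 CPM on imatinib and 0.775 CPM on vehicle, at or near 0 in every library. Transcripts of other cells were abundant: C1qa of macrophages was at 1092, 2435 and 1851 CPM on imatinib and at 3128, 2461 and 3073 CPM on vehicle.

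The clock genes did not share 1 direction. The output gene Dbp and the repressor Cry1 rose, Per2 fell, and the activator Arntl was at nearly the same level in both groups. Of the 9 genes other than Nr1d1, 2 rose (Cry1 and Dbp), 1 fell (Per2) and 6 did not pass an adjusted p of 0.05, where 14.6% of all tested genes passed, 6.15% higher and 8.42% lower. Dbp and Per2 also had a log2 fold change beyond 1, as did 5.08% of all tested genes. The median log2 fold change of imatinib over vehicle was 0.05 in these 9 genes and 0.01 in all genes tested. By arm, the log2 fold change was 0.88 for Nr1d2, the REV-ERB gene that did not prompt the choice, and the median was -0.61 for the 5 PER and CRY genes, 1.05 for Dbp and Tef, and 0.05 for Arntl. In the 9 genes the groups did not overlap in 4, higher in 2 (Cry1 and Dbp) and lower in 2 (Per1 and Per2), against 37.7% of all genes tested (17.5% higher, 20.2% lower).

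**Figure D2:**
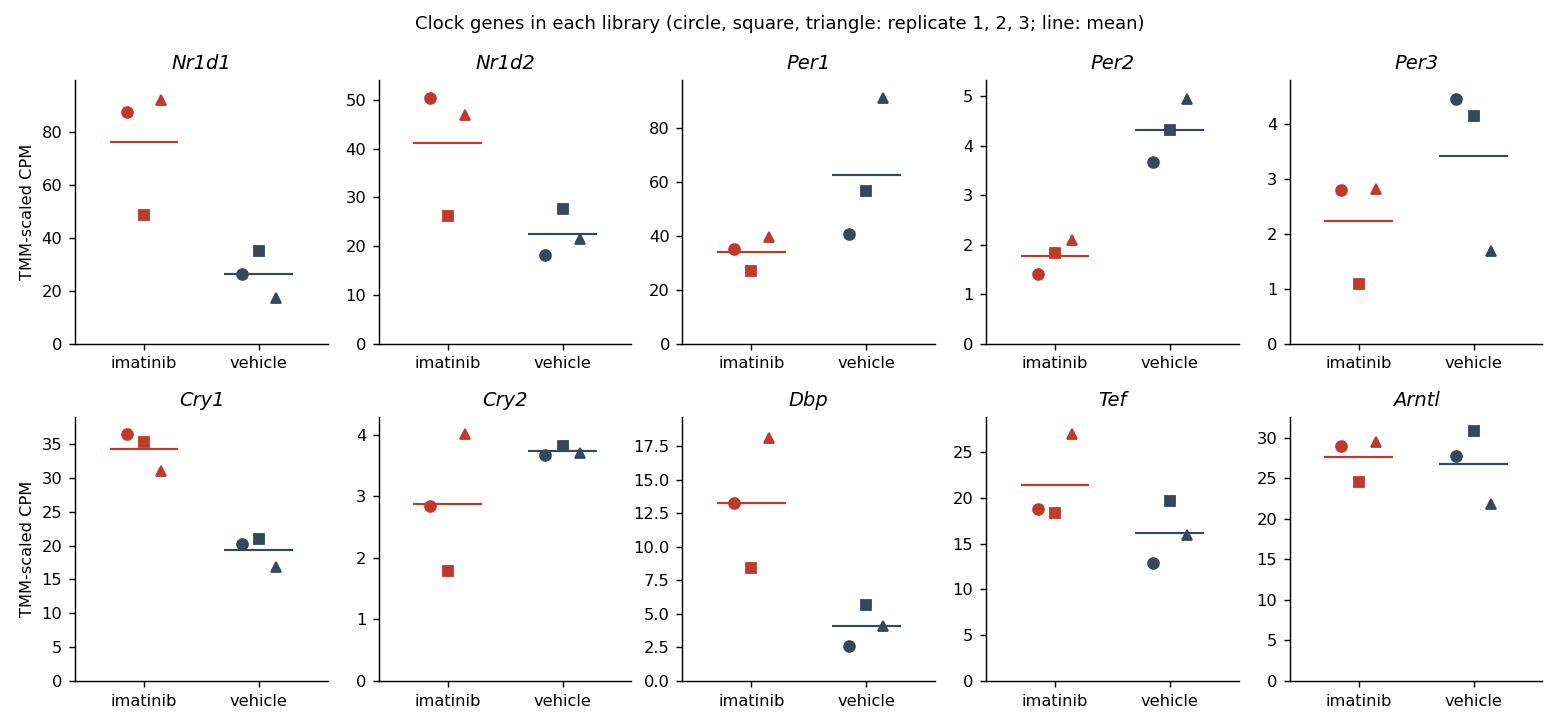
TMM-scaled CPM of the 10 clock genes in the 3 imatinib libraries (red, left) and the 3 vehicle libraries (blue, right), with circle, square and triangle for replicates 1, 2 and 3 and a line at the group mean. Groups are apart for Nr1d1, Cry1 and Dbp (imatinib above) and for Per1 and Per2 (imatinib below), and overlap for the other 5 genes.

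The REV-ERB repressors connect the core loop to the transcription of Arntl. Nr1d1 (chr11:98767932-98775333, GRCm38, minus strand), encoding REV-ERBα, had 87.6, 48.7 and 92.1 CPM in imatinib libraries 1, 2 and 3, against 26.4, 34.9 and 17.3 CPM in vehicle libraries 1, 2 and 3. The groups did not overlap, and imatinib 2 was nearest to the vehicle group. On the log2 scale the fold change was 1.54 (SE 0.33), a 2.91-fold higher level, and leaving out single libraries moved it between 1.31 and 1.80. The raw counts behind these values were 1937, 985 and 2067 on imatinib and 647, 768 and 401 on vehicle.

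At its 3′ end the span of Nr1d1 shares 1075 bases with that of Thra, the thyroid hormone receptor α gene on the opposite strand. The strand setting of the counting is not given in the sources used here, so reads from the shared stretch cannot be assigned. Thra had 793, 394 and 723 counts on imatinib and 375, 427 and 324 counts on vehicle, fewer than Nr1d1 in every library.

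Nr1d2 (chr14:18204054-18239127, minus strand), encoding REV-ERBβ, had 50.4, 26.1 and 47.0 CPM on imatinib, against 18.2, 27.6 and 21.5 CPM on vehicle. Imatinib 1 and 3 were above all vehicle libraries, but imatinib 2 was below vehicle 2, so the groups overlapped. The log2 fold change of 0.88 (SE 0.26) did not pass the test (adjusted p = 0.0636, edgeR). Leaving out imatinib 2 raised the calls over all genes from 2421 to 2951. Nr1d2 then passed, with a log2 fold change of 1.10 and an adjusted p of 0.00726 (edgeR). DESeq2 (adjusted p = 0.00662) and limma voom with quality weights (adjusted p = 0.0356) put it past the threshold with all libraries, whereas scaling to CD3 counts gave 0.12 (adjusted p = 0.798).

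The REV-ERB genes were also set against each other within libraries, as a description, since Nr1d1 was selected on its counts. Counts of Nr1d1 per count of Nr1d2 were 1.74, 1.87 and 1.96 on imatinib and 1.45, 1.27 and 0.804 on vehicle, and the groups did not overlap. Such a ratio needs no scaling between libraries.

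The PER genes encode the scaffold of the repressor complex, and none had a positive fold change. Per2 (chr1:91415982-91459324, minus strand) had 1.40, 1.83 and 2.09 CPM on imatinib, against 3.67, 4.32 and 4.95 CPM on vehicle. All imatinib libraries were below all vehicle libraries. Per2 fell by 1.28 on the log2 scale (SE 0.32, adjusted p = 0.0346, edgeR), a 2.42-fold higher level on vehicle. It rested on few reads, 31, 37 and 47 counts on imatinib and 90, 95 and 115 counts on vehicle. Leaving out any library other than imatinib 2 took the adjusted p above 0.05 (0.0717 to 0.116), with log2 fold changes of -1.42 to -1.13.

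Per1 (chr11:69095217-69109960, plus strand), which holds the E-box shown above, was the most abundant PER gene. It had 35.3, 27.2 and 39.7 CPM on imatinib, against 40.7, 56.6 and 91.1 CPM on vehicle. The groups did not overlap, but imatinib 3 and vehicle 1 lay close together and vehicle 3 stood well above the others. Its log2 fold change of -0.88 (SE 0.30, adjusted p = 0.0902, edgeR) did not pass the test. Without vehicle 1 it was -1.14 (adjusted p = 0.0447), without vehicle 3 it was -0.52 (adjusted p = 0.169), DESeq2 gave an adjusted p of 0.00696, and limma voom gave -0.70 (adjusted p = 0.207).

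Per3 (chr4:151003652-151044665, minus strand), with the D-box pair shown above, had 2.80, 1.09 and 2.81 CPM on imatinib and 4.45, 4.13 and 1.68 CPM on vehicle. Imatinib 2 and vehicle 3 were the low libraries of their groups, and the groups overlapped. Its log2 fold change was -0.61 (SE 0.50, adjusted p = 0.445, edgeR), from 22 to 63 counts on imatinib and 39 to 109 counts on vehicle. Per3 lies within the span of Camta1 on the same strand. Camta1 had 85 to 135 counts on imatinib and 159 to 180 counts on vehicle.

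The cryptochromes are the partners of the PER proteins and the stronger inhibitors of the activator pair. Cry1 (chr10:85131700-85185064, minus strand) had 36.5, 35.4 and 31.0 CPM on imatinib, against 20.3, 21.03 and 16.8 CPM on vehicle. Both groups were tight and lay well apart. Cry1 rose by a log2 fold change of 0.82 (SE 0.14, adjusted p = 0.0106, edgeR), a 1.77-fold higher level. The call held without any single library (adjusted p 0.0142 to 0.0408).

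Cry2 (chr2:92403646-92434043, minus strand) had 2.85, 1.78 and 4.01 CPM on imatinib and 3.67, 3.82 and 3.70 CPM on vehicle. The vehicle libraries were nearly equal, and the imatinib libraries spread to both sides of them. Cry2 had a log2 fold change of -0.37 (SE 0.35, adjusted p = 0.519, edgeR). Counts were 36 to 90 on imatinib and 84 to 90 on vehicle, and the spread lay mostly between the imatinib libraries.

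Among the output genes, Dbp (chr7:45705088-45710203, plus strand), a transcription factor whose own transcript is a direct target of the activator pair, had 13.2, 8.41 and 18.1 CPM on imatinib, against 2.61, 5.63 and 4.09 CPM on vehicle. All imatinib values were above all vehicle values, and imatinib 2 was again the lowest of its group and vehicle 2 the highest of its own. Dbp rose by a log2 fold change of 1.69 (SE 0.36, adjusted p = 0.0209, edgeR), a 3.23-fold higher level. The call was lost without imatinib 3 (log2 fold change 1.39, adjusted p = 0.0753), without vehicle 1 (1.43, adjusted p = 0.0645) and without vehicle 3 (1.69, adjusted p = 0.0712). The span of Dbp shares 737 bases with that of Sphk2 on the opposite strand. Sphk2 had 751, 894 and 1060 counts on imatinib and 1244, 1126 and 1107 counts on vehicle, fewer in every imatinib library.

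Tef (chr15:81802421-81826863, plus strand), the PAR bZIP factor with an E-box shown above, had 18.8, 18.4 and 27.0 CPM on imatinib and 12.9, 19.7 and 16.0 CPM on vehicle. Imatinib 3 was the highest library, and the other imatinib libraries lay within the vehicle range. Tef had a log2 fold change of 0.40 (SE 0.21, adjusted p = 0.231, edgeR). Counts of Dbp per count of Tef were 0.703, 0.458 and 0.671 on imatinib and 0.203, 0.286 and 0.255 on vehicle, so these 2 output genes differed in ratio without overlap.

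Arntl (chr7:113207465-113314126, plus strand), the sole member of the activator arm, had 28.9, 24.6 and 29.5 CPM on imatinib and 27.7, 30.8 and 21.8 CPM on vehicle. The imatinib libraries lay wholly within the vehicle range. Its log2 fold change was 0.05 (SE 0.16, adjusted p = 0.873, edgeR), and stayed between -0.08 and 0.16 without single libraries.

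Each repressor and output gene other than Nr1d2 and Tef was set against Arntl within each library. The value for Nr1d1 is a description of the gene that prompted the choice. Nr1d1 per Arntl count was 3.03, 1.98 and 3.12 on imatinib and 0.951, 1.13 and 0.792 on vehicle. Dbp per Arntl count was 0.458, 0.342 and 0.615 on imatinib and 0.0941, 0.183 and 0.188 on vehicle. Cry1 per Arntl count was 1.26, 1.44 and 1.05 on imatinib and 0.731, 0.682 and 0.771 on vehicle. For Dbp, an output factor, and Cry1, a cryptochrome, the imatinib libraries were all higher. Per1 per Arntl count was 1.22, 1.10 and 1.34 on imatinib and 1.47, 1.83 and 4.18 on vehicle. Per2 per Arntl count was 0.0484, 0.0744 and 0.0710 on imatinib and 0.132, 0.140 and 0.227 on vehicle. In both PER genes the imatinib libraries were all lower, whereas the ratios of Per3 and Cry2 to Arntl overlapped, as did the ratio of Per1 to Per2. Since Arntl was at nearly the same level in both groups, the ratios to it largely repeat the CPM comparison. The share of all genes whose ratio to Arntl did not overlap was not computed.

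**Figure D3:**
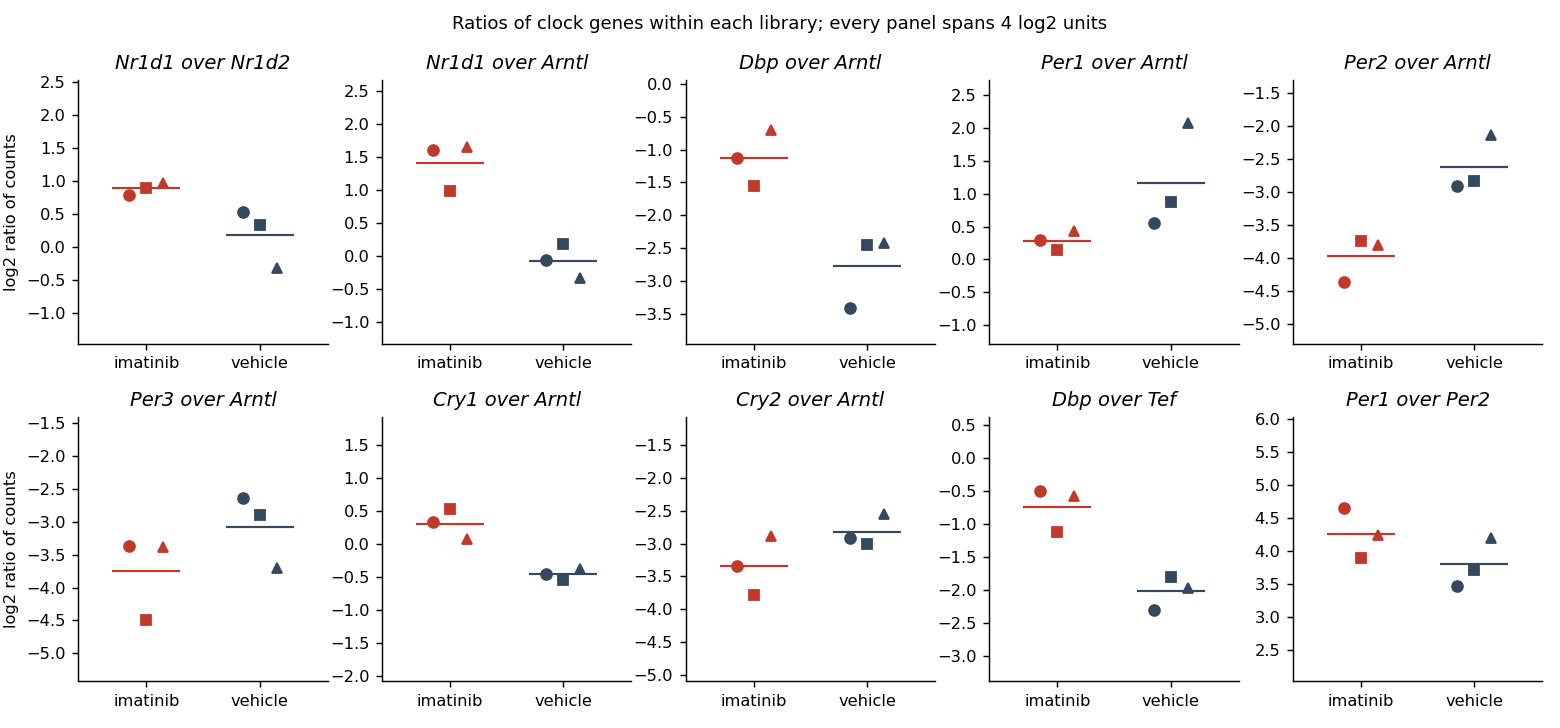
Ratio of counts of 2 clock genes within each library on a log2 scale, imatinib (red, left) and vehicle (blue, right), with symbols for replicates 1, 2 and 3 and a line at the mean. Ratios to Arntl are higher on imatinib for Nr1d1, Dbp and Cry1 and lower for Per1 and Per2, and overlap for Per3 and Cry2.

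Levels were compared between genes per kilobase of exon (GENCODE M21 lengths, RPKM of TMM-scaled libraries). Nr1d1 led on imatinib at 24.7 ± 7.75, followed by Cry1 at 10.3 ± 0.878 and Nr1d2 at 7.61 ± 2.43 (SD, n = 3 each). On vehicle Per1 led at 11.2 ± 4.58, followed by Nr1d1 at 8.51 ± 2.86 and Cry1 at 5.80 ± 0.678 (SD, n = 3 each). Over all 6 libraries the order by mean was Nr1d1 (16.6), Per1 (8.60), Cry1 (8.03), Nr1d2 (5.88), Arntl (3.62), Dbp (2.90), Tef (2.39), Cry2 (0.523), Per2 (0.520) and Per3 (0.294). The ranges of neighbours in that order overlapped except between Tef and Cry2, which left Cry2, Per2 and Per3 apart at the low end.

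In the 10 genes the same libraries tended to be at the edge. Imatinib 2 was the lowest imatinib library for 8 of the 10 genes and imatinib 3 the highest for 8. Vehicle 2 was the highest vehicle library for 7, and the lowest was vehicle 1 for 6 genes and vehicle 3 for 4. Among the 21 further clock genes imatinib 2 was the lowest for 12, but imatinib 3 was the highest for only 7. There vehicle 2 was the highest for 8 and vehicle 3 the lowest for 11. Shares over all genes were not computed. Imatinib 2 also had the least Trdc and the most C1qa of its group, and vehicle 2 had the most Trdc and the least C1qa of its own.

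The wider loop was described with a list of 21 further clock genes, of which 19 passed the filter on low counts (Arntl2 and Rorb did not). Of these 19, 1 rose (Hlf), 2 fell (Csnk1e and Usp2) and 16 did not pass the test, against 14.6% of all tested genes that passed, so calls in this list were about as frequent as in all genes. The median log2 fold change was -0.11. Hlf, the third PAR bZIP output gene, had 37.3, 24.0 and 32.6 CPM on imatinib, against 5.51, 13.7 and 4.48 CPM on vehicle. It rose by a log2 fold change of 1.99 (SE 0.44, adjusted p = 0.0321, edgeR), with no overlap and with vehicle 2 again the highest of its group. Leaving out any library other than vehicle 2 took its adjusted p to between 0.0557 and 0.0993, and without a filter on low counts it was 0.117. Without vehicle 2 its log2 fold change was 2.64 (adjusted p = 0.00856).

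Csnk1e and Usp2 act on the clock proteins, casein kinase 1ε by phosphorylating PER and the protease USP2 by removing ubiquitin. Csnk1e had 40.3, 61.5 and 51.9 CPM on imatinib, against 82.6, 74.8 and 85.4 CPM on vehicle, and its log2 fold change was -0.66 (SE 0.16, adjusted p = 0.0275, edgeR). Usp2 had 5.02, 7.22 and 5.21 CPM on imatinib, against 12.4, 11.0 and 13.5 CPM on vehicle, and its log2 fold change was -1.08 (SE 0.21, adjusted p = 0.0166, edgeR). In both genes the groups did not overlap. Both lost the call without imatinib 3, vehicle 1 or vehicle 3, and Csnk1e also without vehicle 2 (adjusted p 0.0586 to 0.0853).

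The most abundant genes of that list did not pass. The log2 fold change was 0.41 (adjusted p = 0.110) for Ncor1, the corepressor that REV-ERB recruits, and 0.49 (adjusted p = 0.204) for Bhlhe40, an E-box repressor. It was -0.05 (adjusted p = 0.799) for Csnk1d, a second PER kinase. Fbxw11, a ubiquitin ligase subunit that acts on PER, had 62.2, 60.1 and 72.2 CPM on imatinib and 87.5, 77.4 and 87.3 CPM on vehicle, without overlap, at -0.37 (SE 0.11, adjusted p = 0.0572, edgeR). It passed with library totals, CD3 scaling, the stricter filter and DESeq2 (adjusted p 0.0102 to 0.0493). Some others were chosen after their values were seen. Clock, the partner of Arntl, had a log2 fold change of -0.35 (SE 0.11, adjusted p = 0.0586). Rora, a ROR activator, had 1.16 (SE 0.33, adjusted p = 0.0647). Ciart had 0.0904, 0.594 and 0.579 CPM on imatinib and 1.59, 2.41 and 1.51 CPM on vehicle, the lowest fold change of the list at -2.11 (SE 0.68, adjusted p = 0.0713). Nfil3, which represses at D-boxes, had 0.31 (SE 0.25, adjusted p = 0.440). Of 15 alternative fits, 4 put Clock past the test and 0 put Nfil3 past it. Rora passed in 3 (DESeq2, limma voom and without imatinib 2), and Ciart in 3 (DESeq2, no filter and CD3 scaling). Ciart rested on few reads, 2, 12 and 13 counts on imatinib and 39, 53 and 35 counts on vehicle.

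**Figure D4:**
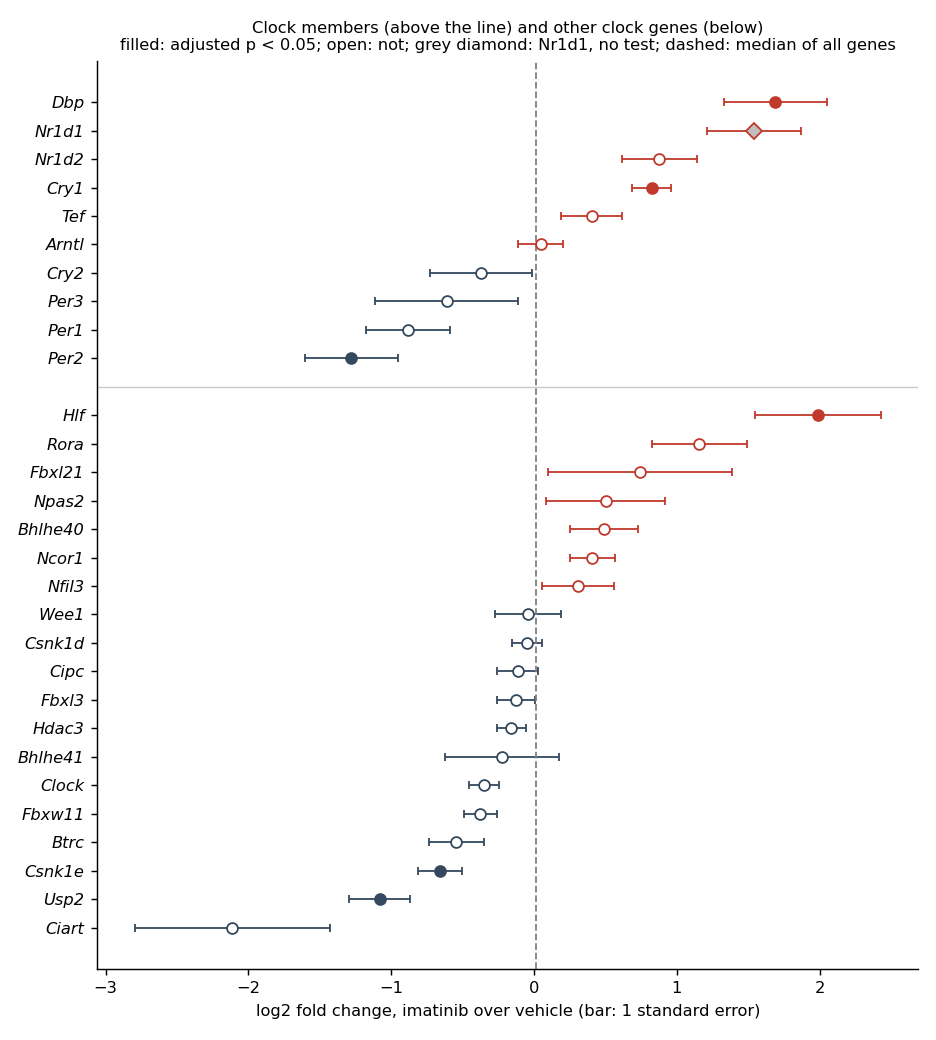
Log2 fold change of imatinib over vehicle with 1 SE for the 10 clock genes (above the grey line) and the 19 further clock genes tested (below it). Filled points passed an adjusted p of 0.05, open points did not, the grey diamond is Nr1d1 with no test, and the dashed line is the median of all genes at 0.01.

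The genes whose level followed Nr1d1 most closely over the 6 libraries were Rab11fip1, Irak3, Septin1, Dkk3 and Rftn1, with a Pearson r of log2 CPM of 0.993 to 0.996. The libraries fall into 2 treatment groups and share their depth, so r is a description only. Among the clock genes r with Nr1d1 was 0.92 for Dbp, 0.91 for Nr1d2 and 0.90 for Cry1, and it was -0.88 for Per2. After subtracting the group means, r was 0.62 for Dbp, 0.78 for Nr1d2, 0.39 for Cry1 and -0.30 for Per2. Among the clock genes it was then highest for Arntl (0.96) and Per3 (0.94). For the cell markers it was 0.92 for Trdc, 0.70 for Kit, -0.43 for S100a8 and -0.65 for C1qa. By rank of r over the 6 libraries among all tested genes, Dbp stood at 642, Nr1d2 at 655 and Cry1 at 858, whereas Trdc (r = 0.98) stood at 70.

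Summed markers of several cell types also differed between the groups. Summed CPM of 4 T cell markers was 866 to 1193 on imatinib and 431 to 793 on vehicle, and 2 of the 4 genes passed the test. The 3 γδ T cell markers summed to 1444 to 2135 CPM on imatinib and 676 to 1253 CPM on vehicle, and 1 passed (Trdc). Summed CPM of 3 markers of αβ T cells, which a TCRγδ gate should leave out, was 307 to 454 on imatinib and 190 to 257 on vehicle. All 3 rose by edgeR, but 0 passed with CD3 scaling, with the replicate block, or without imatinib 3, vehicle 1 or vehicle 3. Which cells carried these transcripts was not determined. For 3 markers of interstitial cells of Cajal and GIST the sum was 77.1 to 282 CPM on imatinib and 25.5 to 29.9 CPM on vehicle, and 2 passed, Kit (196, 61.0 and 142 CPM on imatinib, against 21.1, 20.7 and 19.6 CPM on vehicle) being the defining one. For 5 fibroblast markers it was 325 to 643 CPM on imatinib and 66.4 to 228 CPM on vehicle, with 0 past the test by edgeR (4 at an unadjusted p under 0.05), 4 by DESeq2 and 1 by limma voom. Macrophage markers, 6 in number, summed to 4546 to 9016 CPM on imatinib and 8776 to 11513 CPM on vehicle, with 0 past the test by edgeR (2 unadjusted), 2 by DESeq2 and 0 by limma voom. Neutrophil markers, 5 in number, summed to 115 to 360 CPM on imatinib and 89.9 to 131 CPM on vehicle, with 0 past the test by edgeR (4 unadjusted), 4 by DESeq2 and 0 by limma voom. Csf3r made up most of the vehicle sum (80.9, 106 and 84.4 CPM) and had a log2 fold change of -0.21. The other 4 had log2 fold changes of 2.65 to 3.11. They were higher on imatinib without overlap, as were 17.5% of all tested genes. S100a8 of neutrophils was at 13.9, 64.0 and 7.97 CPM on imatinib and 2.29, 5.22 and 2.45 CPM on vehicle. B and plasma cell markers, 4 in number, summed to 4187 to 5471 CPM on imatinib and 667 to 4462 CPM on vehicle, with 0 past the test by edgeR (1 unadjusted), 1 by DESeq2 and 0 by limma voom. No marker in these lists was at 0 in all libraries. The part of these cells in the clock results was not tested, and in bulk samples fewer cells of a type and less RNA per cell cannot be told apart.

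Clock genes were also expressed per count of single markers. Per 1000 Trdc counts, Nr1d1 had 70.8, 57.4 and 88.8 counts on imatinib and 52.3, 51.9 and 46.3 counts on vehicle, still without overlap but with imatinib 2 close to vehicle 1. Per1 had 28.6, 32.0 and 38.2 counts on imatinib and 80.6, 84.1 and 244 counts on vehicle, and Per2 had 1.13, 2.15 and 2.02 counts on imatinib and 7.28, 6.41 and 13.3 counts on vehicle. Arntl had 23.4, 28.9 and 28.4 counts on imatinib and 55.0, 45.8 and 58.4 counts on vehicle. On this base the imatinib libraries were lower in Per1, Per2, Per3, Cry2 and Arntl and higher in Nr1d1, and the groups overlapped in Nr1d2, Cry1, Dbp and Tef. Trdc itself was higher on imatinib, by 1.01 on the log2 scale, so division by it moves any gene down. In CPM the groups overlapped in Per3, Cry2 and Arntl. How many of all genes separate per Trdc count was not computed. Per count of C1qa, Nr1d1, Cry1 and Dbp were higher in every imatinib library and the other 7 genes overlapped. C1qa itself was lower in every imatinib library, at -0.69 on the log2 scale, so division by it moves any gene up. Nr1d1, Cry1 and Dbp were higher without overlap in CPM too. How many of all genes separate per C1qa count was not computed.

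Scaling each library to its counts of Cd3d, Cd3e and Cd3g, the CD3 chains of the T cell receptor complex, moved the median log2 fold change of all genes by -0.73. On that scale Nr1d1 was at 0.85, Nr1d2 at 0.12 (adjusted p = 0.798), Dbp at 0.95 (adjusted p = 0.0723) and Cry1 at 0.13 (adjusted p = 0.781), so Dbp and Cry1 no longer passed the test. Per1 was at -1.74 (adjusted p = 5.9e-05) and Per2 at -2.03 (adjusted p = 0.00195), both past it, and Tef at -0.32 and Arntl at -0.65 had a negative sign. These moves follow the common shift. Relative to the median of all genes, the values with CD3 scaling and with TMM scaling were 0.85 and 0.81 for Cry1, 1.67 and 1.68 for Dbp, 0.84 and 0.86 for Nr1d2, 0.40 and 0.39 for Tef, 0.07 and 0.03 for Arntl, -1.31 and -1.29 for Per2, and -1.02 and -0.90 for Per1. For Nr1d1 they were 1.57 and 1.53.

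**Figure D5:**
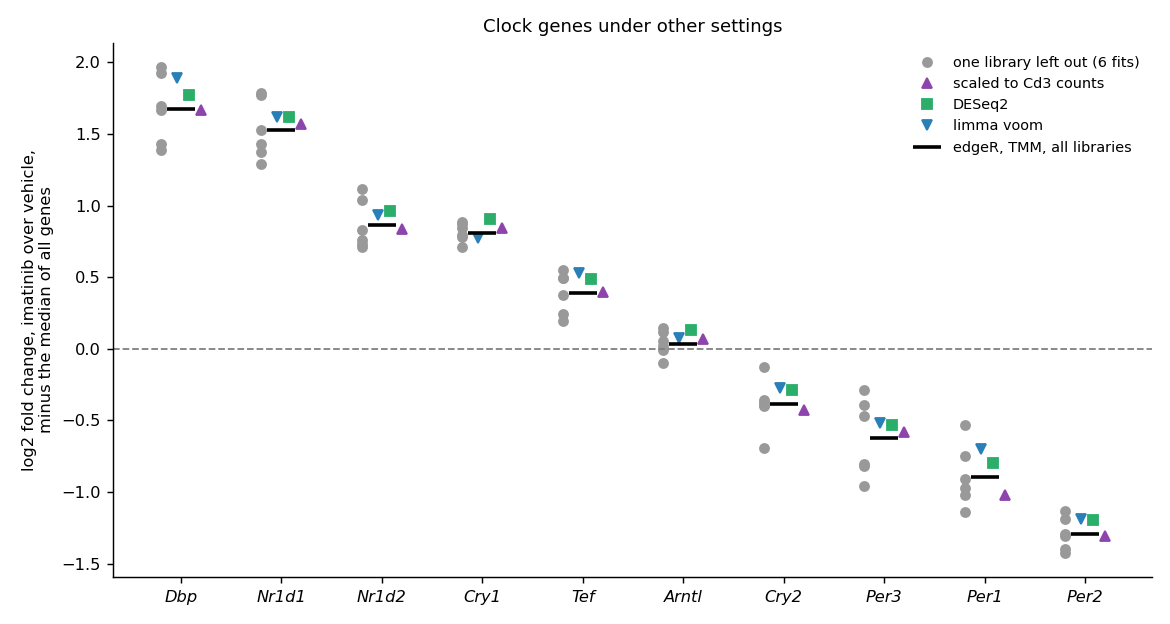
Log2 fold change of imatinib over vehicle minus the median of all genes, for the 10 clock genes under TMM scaling with all libraries (black line), with 1 library left out (grey), with CD3 scaling (purple), and by DESeq2 (green) or limma voom (blue). Nr1d1 lies above 1 and Per2 below -1 in each setting drawn.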

How the data were processed

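RNA was sequenced from 6 libraries, 3 imatinib and 3 vehicle, grouped by the titles and treatment labels. The authors aligned the Illumina reads to mouse GRCm38 with STAR and obtained counts per gene from featureCounts. Its annotation, its strand setting and its handling of multimapping reads are not stated in the labels or methods. The deposited values are raw counts. Rows without a gene name (3016 of 57332, 0.118% to 0.158% of counts) were dropped, 1013 exactly repeated rows entered once, and 78 symbols with several different rows were summed. Another 3 columns belong to none of these samples and were ignored. Every pair of libraries differed beyond sampling noise.

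Imatinib and vehicle were compared in edgeR 4.0.16 under R 4.3.3 (default expression filter, TMM factors, robust quasi-likelihood F test). P-values were adjusted by Benjamini-Hochberg over 16621 genes, with a threshold of 0.05. The coefficient of variation between libraries was 29.1%. The standard error is the fold change divided by the square root of F. The fit was tested on simulated data. The members, the gene lists and the tests were chosen with earlier results of these data known. Named genes are the 10 members, other clock genes past the test with the 4 of highest mean, the 5 genes most like Nr1d1 and 5 markers (Trdc, C1qa, S100a8, Kit and Foxp3). One further clock gene of that rule is not reported here. Overlapping genes were named for their position, and Csf3r for its part in the neutrophil sum. Clock, Rora, Ciart and Nfil3 were named after their values were seen. Gene positions, lengths and overlaps came from GENCODE M21, and promoter windows and sequences from RefSeq (GRCm38.p6).

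Alternatives were RLE size factors, library totals, scaling to CD3 counts, no filter, at least 1 CPM in 3 libraries, DESeq2 1.42.0, limma 3.58.1 voom with quality weights, the replicate number as a block, all rows of a symbol summed, a log2 fold change beyond 1 as well, and leaving out each library. Tables and plots used Python 3.11.15, pandas 2.3.3 and matplotlib 3.10.9.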

Additional observations from a re-analysis of the deposited data

How the results depend on the processing

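Of the 9 clock genes other than Nr1d1, 3 passed the test in the reported fit (edgeR). DESeq2 gave 5, the replicate block 1, and leaving out single libraries 1 to 4, with 1 without imatinib 3 or vehicle 3. The other alternatives gave 2 to 4. Of the 19 further clock genes tested, 3 passed. Library totals gave 5, CD3 scaling 8, DESeq2 6, limma voom 5 and the replicate block 0, and leaving out single libraries gave 0 to 5, with 0 by edgeR without imatinib 3, vehicle 1 or vehicle 3 (8, 9 and 7 at an unadjusted p under 0.05) and 5 without imatinib 2. The block left 9 at an unadjusted p under 0.05, and the other alternatives gave 2 to 4 calls. No direction that had passed the test reversed under any alternative. The log2 fold change of Nr1d1 moved to 0.85 under CD3 scaling. Replicate numbers did not pair the libraries (correlations of deviations of -0.20, -0.05 and -0.06), and the block lowered the calls over all genes to 610, against 2421. Over all genes DESeq2 called 3404, CD3 scaling 4813, and leaving out single libraries 733 to 2951. Per2, Per3 and Cry2 had under 120 counts per library. Whether depth or the number of libraries limited the calls was not tested.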
